A study of Mus musculus with 22 samples.

Results

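Resting mouse fibroblasts keep many genes of other tissues almost silent. Of the 11208 genes measured here, 9 stood at a mean under 50 normalized counts in starved cells carrying an E2F1 construct and reached a mean of at least 200 after 12 h of E2F1 induction. These were Ptpru, Neurl1b, Fam161a, Grhl1, Dennd5b, Eepd1, Ndst3, Nxph3 and 2810455O05Rik. The starting and the 12 h values in the E2F1 line chose the genes, so they are given as a description and nothing is tested on them. All 9 started among the lowest of the table, since 30 genes (0.268% of all) had a 0 h mean under 50. The term "switched on" needs a limit, because each of the 9 still had a 12 h mean below 1400, the lower of the medians of the 2 E2F1 12 h libraries.

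The cells were NIH/3T3, an established line of mouse embryonic fibroblasts, with a doxycycline-inducible construct: E2F1 in one line, called the E2F1 line, and an empty vector in the other, the EV line. Starvation in 0.25% serum for 48 h came first in both, and the E2F1 line then received 500 ng/ml doxycycline for 0, 2, 6 or 12 h. The EV line received doxycycline for the same times, or 10% serum for 2, 6 or 12 h, with the EV 0 h libraries as the common start. Each of the 11 groups had 2 libraries of polyadenylated RNA, 22 in all, and the labels do not say whether replicates were separate cultures or whether a line was 1 clone, so p-values measure only the spread between these libraries. The line and the construct differ together and cannot be told apart, and in bulk RNA more expressing cells and more RNA per cell cannot be told apart.

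E2F1 is an activating member of the E2F family of transcription factors. It is held inactive by retinoblastoma protein in resting cells and, when free, activates genes for DNA replication and the cyclin E genes that carry a cell from G1 into S phase. Its consensus site is a GC-rich sequence with thymines in front, often found close to the start of such genes. Ccne1, a cyclin E gene and a known E2F target, went from 666 and 544 normalized counts at 0 h to 10461 and 9521 at 6 h in the E2F1 line. E2f1 itself stood at 1703 and 1637 at 0 h, 1535 and 1755 at 2 h and 3806 and 3602 at 6 h. Its 12 h serum values in the EV line, 4615 and 4247, exceeded all values of the induced line, and its EV 0 h values were 1635 and 1655. Whether transcripts of the construct are counted under E2f1 is not stated, so these values do not measure the level of induced E2F1.

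The members are known from different tissues. Nxph3 encodes neurexophilin 3, a secreted ligand of the synaptic neurexins found in subsets of brain neurons. Ndst3 encodes an N-deacetylase/N-sulfotransferase of heparan sulfate, found mainly in brain. Neurl1b encodes a neuralized-type ubiquitin ligase that acts on Notch ligands. Fam161a encodes a protein of centrioles and of the photoreceptor cilium, and its loss is known from inherited retinal degeneration. Grhl1 encodes a grainyhead-like transcription factor of the epidermis and other epithelia, and Ptpru a receptor tyrosine phosphatase with an adhesive outer part, found in epithelia and the developing nervous system. Dennd5b encodes a DENN domain regulator of Rab GTPases in membrane traffic. Eepd1 encodes an endonuclease that acts at stalled replication forks and is also known from cholesterol export in macrophages. All members except 2810455O05Rik code for proteins, and that gene is annotated as a long intergenic non-coding RNA.

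In GRCm38 with GENCODE M21 the 9 genes lie on 8 chromosomes. Ptpru is on chromosome 4 (131768457 to 131838288), Neurl1b on chromosome 17 (26414829 to 26446349), Grhl1 on chromosome 12 (24572283 to 24617391) and Dennd5b on chromosome 6 (148988071 to 149101680). Eepd1 is on chromosome 9 (25481547 to 25604110) and Ndst3 on chromosome 3 (123526166 to 123690853). Chromosome 11 holds both Fam161a (23007531 to 23030788) and Nxph3 (95509845 to 95514570). The non-coding gene 2810455O05Rik is on chromosome 8 (123838553 to 123840785). Within 50000 bases the table held 15 neighbours of 7 of the genes, of which 3 had a log2 difference of at least 1 in size between the E2F1 and EV lines at 6 h. Ccsap beside 2810455O05Rik (1.63) and Sinhcaf beside Dennd5b (1.21) were higher in the E2F1 line, and Zrsr1 beside Fam161a (-1.51) was lower. Over all genes, limma called 33.0% higher and 27.2% lower in that comparison at an adjusted p under 0.05, which is another measure. The share of all genes with a difference of this size was not counted, so these 3 are a description. Dennd5b, Eepd1, Ndst3 and 2810455O05Rik overlap other annotated genes, and the use of strand in the counting was not stated, so their counts are uncertain to that extent.

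RefSeq promoter windows (250 bases before to 50 bases after an annotated start, GRCm38.p6) were matched for 7 of the 9 genes, giving 10 windows. The stretch before the start is shown for Neurl1b and Eepd1, the members with a match to a short E2F-like motif, and for Grhl1 as a CG-rich window without one. Capitals mark the motif.
Neurl1b, chr17:26414609-26414858, plus strand: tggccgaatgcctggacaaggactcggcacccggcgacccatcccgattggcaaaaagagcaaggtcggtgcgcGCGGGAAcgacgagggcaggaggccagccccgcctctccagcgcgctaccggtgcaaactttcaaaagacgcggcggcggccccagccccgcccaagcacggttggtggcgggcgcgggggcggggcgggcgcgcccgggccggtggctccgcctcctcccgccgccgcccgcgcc
Eepd1, chr9:25481347-25481596, plus strand: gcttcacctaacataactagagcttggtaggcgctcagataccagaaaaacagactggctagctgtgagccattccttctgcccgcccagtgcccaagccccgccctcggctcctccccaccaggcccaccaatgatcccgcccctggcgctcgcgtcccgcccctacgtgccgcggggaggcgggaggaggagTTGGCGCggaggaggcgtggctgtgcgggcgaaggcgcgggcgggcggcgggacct
Grhl1, chr12:24572037-24572286, plus strand: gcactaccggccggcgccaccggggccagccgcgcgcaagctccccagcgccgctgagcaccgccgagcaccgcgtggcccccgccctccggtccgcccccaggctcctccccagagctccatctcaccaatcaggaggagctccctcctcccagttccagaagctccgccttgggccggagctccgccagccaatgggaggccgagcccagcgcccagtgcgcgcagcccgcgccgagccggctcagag

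The motif searched on either strand was the E2F-like heptamer TTCCCGC together with its variant forms, which were TTCGCGC with a changed middle, the related form TTGCCGC and, as the last form, TTGGCGC. It was found in 2 of the 10 windows of the members (20%), in 17.3% of the windows of all genes in the table and in 9.57% of all RefSeq windows, so the members' share is near that of the table. Neurl1b had TTCCCGC on the opposite strand from -176 to -170 relative to the start and TTGCCGC on the opposite strand from 31 to 37. Eepd1 had TTGGCGC from -56 to -50. The longer form, with another thymine in front, was in 0 of the 10 windows and in 4.21% of the table's windows. No match says only that these letters are not in this window, and such a match is not evidence of binding. The windows differed widely in CG content: the first listed ones of Neurl1b, Ptpru, Dennd5b, Grhl1 and Eepd1 held 44, 40, 37, 35 and 32 CG dinucleotides, against a median of 21 over the table. The windows of Fam161a held 17 and 0, the second window of Grhl1 held 0, and those of Ndst3 held 1 and 3. Not every window marks the gene's outer end: both windows of Ndst3 and the second ones of Grhl1 and Fam161a begin at starts 5856 to 71403 bases inside the GENCODE gene.

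Totals per library ran from 34014608 to 46057140 normalized counts, and medians from 1242.5 to 1434.5. No gene in the table had a mean over the 22 libraries below 99.6. For 7 of the 9 members the mean without the E2F1 6 and 12 h libraries was under that minimum. These would not have reached it without those libraries, so counts over the members are a description. One of the 7, 2810455O05Rik, had a mean of 110 over the 22 libraries. Its serum 2 h values, 339 and 297, were its highest and helped it to pass as well. Of 15 fibroblast markers 14 were in the table, and their summed level was 1147825 to 1162959 normalized counts at 0 h and 729210 to 757771 at 12 h in the E2F1 line, and 870574 to 1467313 over the EV libraries. The part of this lower level in the results was not tested. The doxycycline 2 h libraries stood apart. The 10 genes at least 4-fold higher in every E2F1 library than in every EV library outside 2 h stood, in the median, 15.4% and 12.8% of the way towards the E2F1 line's 0 h level in the EV 2 h doxycycline libraries and 7.4% and 9.1% in the serum 2 h libraries. In the E2F1 2 h libraries the same genes stood 20.8% and 38.5% of the way towards the EV level. Results at 2 h of doxycycline rest on these libraries, and the part this plays in them was not tested.

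The first question was when the genes rose in the E2F1 line. At 2 h no member exceeded 114 normalized counts. The rule chose low 0 h values, so rises from them follow in part from the choice and are a description. Ptpru stood at 18 and 15 normalized counts at 0 h, 11 and 20 at 2 h, 541 and 417 at 6 h, and 912 and 995 at 12 h. Neurl1b stood at 10 and 18, then 54 and 74, 472 and 362, and 738 and 720. Both genes had their 12 h libraries above their 6 h libraries, and the 6 h mean was 50.2% of the 12 h mean for Ptpru and 57.2% for Neurl1b.

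Fam161a had the 6 h mean nearest to its 12 h mean among the genes still higher at 12 h (84.2%), with 40 and 47 at 0 h, 42 and 28 at 2 h, 481 and 438 at 6 h and 540 and 551 at 12 h. Ndst3 reached 62.4% of its 12 h mean by 6 h, with 14 and 54 at 0 h, 56 and 45 at 2 h, 200 and 184 at 6 h and 327 and 288 at 12 h. Its 0 h libraries lay far apart, and 1 of them was above the limit of 50. The non-coding 2810455O05Rik stood at 42 and 41, then 114 and 92, 170 and 131, and 248 and 204, and was the only member with both 2 h libraries more than 2-fold above both 0 h libraries besides Grhl1 and Neurl1b.

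The other 4 genes were lower at 12 h than at 6 h. Grhl1, the epithelial transcription factor, stood at 18 and 14 at 0 h, 83 and 49 at 2 h, 1573 and 1270 at 6 h and 555 and 408 at 12 h, so that its 6 h mean was 295% of its 12 h mean. Nxph3, the neuronal ligand, stood at 21 and 20, then 20 and 39, 615 and 621, and 257 and 265, with a 6 h mean at 237% of the 12 h mean. In both, as in Dennd5b and Eepd1, the 6 h and 12 h libraries did not overlap. This is a description, since the rule used the 12 h libraries.

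Dennd5b stood at 37 and 55 at 0 h, 96 and 98 at 2 h, 977 and 765 at 6 h and 585 and 359 at 12 h (6 h mean at 185% of the 12 h mean). Its 0 h libraries lay on either side of the limit of 50. Eepd1 stood at 38 and 36, then 67 and 49, 705 and 545, and 475 and 450 (135%). Division by exon length changed the order of the levels. At 6 h the highest levels per kilobase were those of Nxph3 (294 normalized counts per kilobase), Grhl1 (257) and Eepd1 (213), and at 12 h Eepd1 (158), while Dennd5b had the lowest at 12 h (26.1).

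**Figure D1:**
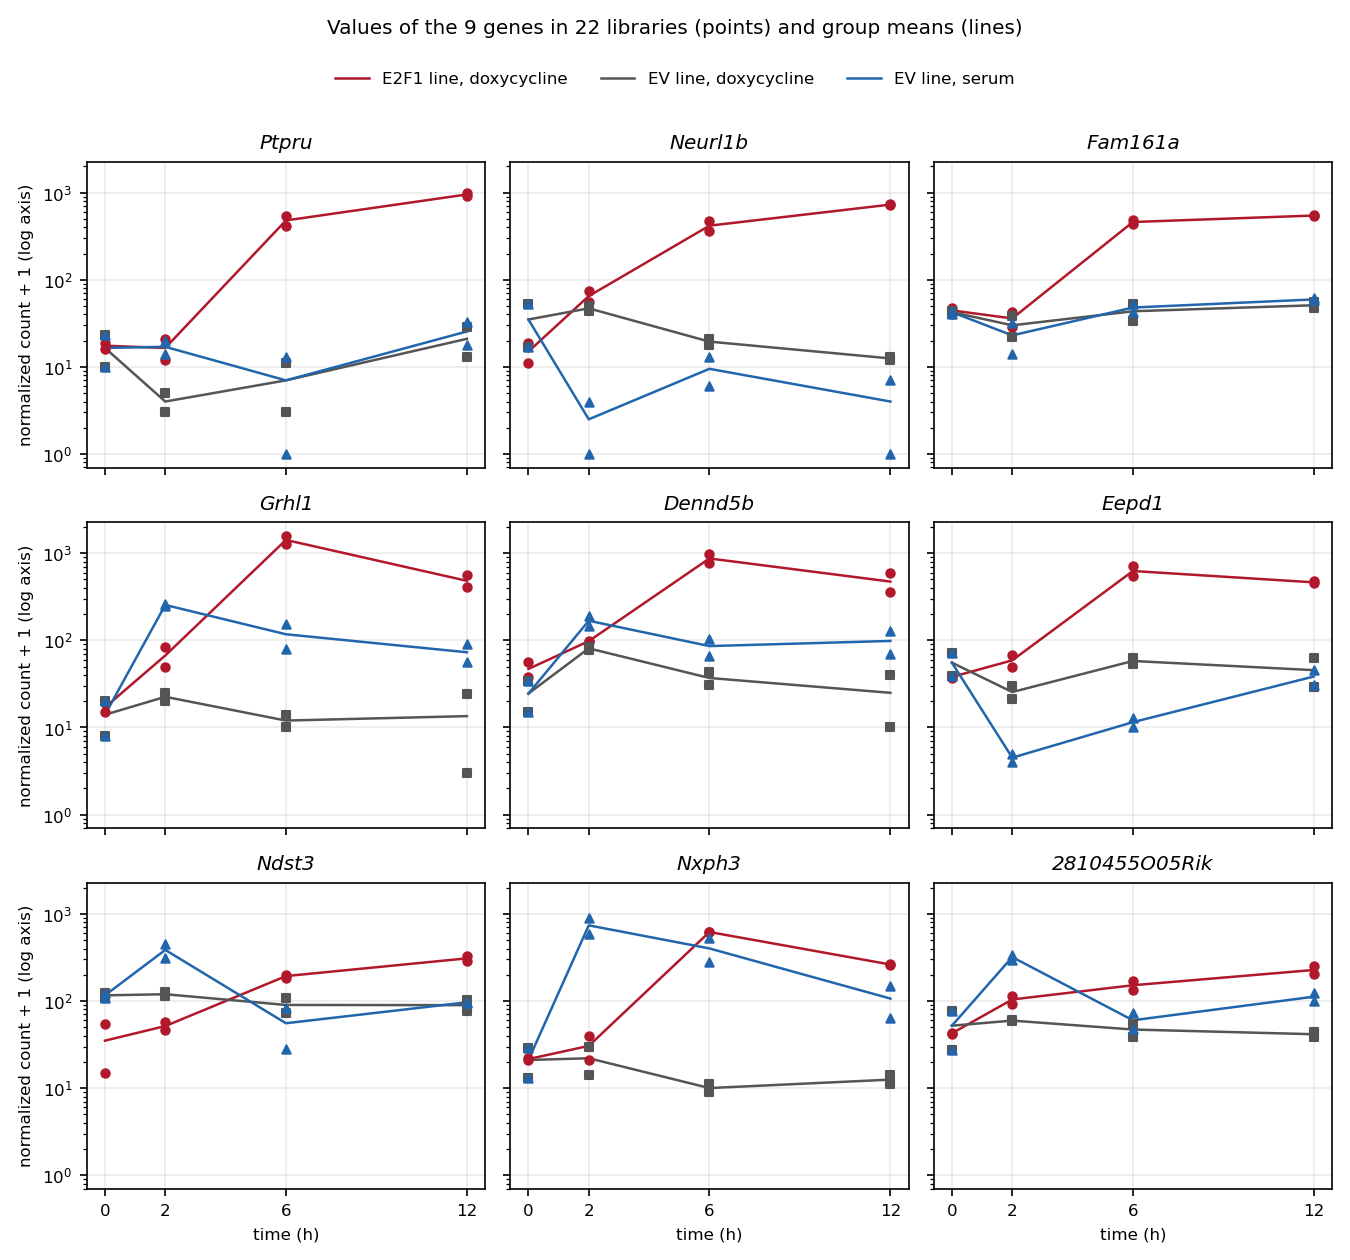
Normalized count + 1 on a log axis against time in hours for each of the 9 genes; points are single libraries, lines join group means, and the EV 0 h libraries serve as the start of both EV courses. At 6 h every E2F1 library lies above every EV doxycycline library, while serum lifts Grhl1, Dennd5b, Ndst3, Nxph3 and 2810455O05Rik at 2 h.

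At the edges of the rule, the members with the highest 0 h means were Dennd5b (46) and Fam161a (43.5), and those with the lowest 12 h means were 2810455O05Rik (226) and Nxph3 (261). Just outside stood Slc35g1 with 51.5 at 0 h and 809.5 at 12 h, and Dlk2 with 48.5 and 193.5. Nr4a3, an immediate early nuclear receptor gene, had 10.5 at 0 h but only 110 at 12 h. In the authors' deposited table for 12 h against 0 h in the E2F1 line all 9 members were listed as higher, as were 2.68% of the genes measured, which follows from the choice of the members. At 6 h against the same 0 h libraries the authors' deposited table listed 8 of the 9 as higher, all but 2810455O05Rik, against 1.70% of the genes measured, which also follows in part from the choice, since the rule took genes with low 0 h values. Its log2 fold changes ran from 2.78 for Ndst3 to 6.51 for Grhl1.

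How the E2F1 line differed from the EV line at 6 h of doxycycline was compared in libraries that the rule had not used. However, 7 of the members would not have reached the table's minimum without the E2F1 6 and 12 h libraries. High 6 h values thus helped to place them among the genes measured, and their counts and p-values support nothing on their own. Ndst3 and Nxph3, with means of 114 and 150 without those libraries, did not depend on them to pass the table's minimum. Of the 9 genes, 8 were higher in the E2F1 line and 0 were lower by limma at an adjusted p under 0.05, against 33.0% of all genes called higher and 27.2% called lower. In all 9 both E2F1 libraries lay above both EV libraries, as in 42.1% of all genes. The largest difference was that of Grhl1, with 1573 and 1270 normalized counts against 13 and 9 in the EV line, 129-fold on the means and 6.90 on the log2(value + 1) scale (SE 0.68, adjusted p 8.52e-08). Without EV 6 h replicate 1 Ptpru was ahead of it, at 7.31 against 7.14. Ptpru had 541 and 417 against 10 and 2, a log2 difference of 6.37 (SE 0.93, adjusted p 1.19e-05) that was 5.44 without EV 6 h replicate 2. Nxph3 had 615 and 621 against 8 and 10, a log2 difference of 5.96 (SE 0.50, adjusted p 1.2e-08). The EV values behind these 3 differences were at most 13, so their sizes depend on the value added before the log: with 8 in place of 1, Grhl1 was at 6.23, Nxph3 at 5.21 and Ptpru at 5.17.

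Dennd5b (977 and 765 against 30 and 42), Neurl1b (472 and 362 against 17 and 20), Fam161a (481 and 438 against 52 and 33) and Eepd1 (705 and 545 against 61 and 53) followed. Their log2 differences were 4.57, 4.41, 3.44 and 3.42, with adjusted p of at most 0.000165. The smallest called difference was that of 2810455O05Rik, with 170 and 131 against 54 and 38, a log2 difference of 1.70 (SE 0.39, adjusted p 0.00106). Ndst3 had 200 and 184 against 106 and 72. Its log2 difference of 1.13 (95% confidence interval 0.10 to 2.15) did not pass, with an adjusted p of 0.055 that ran from 0.00761 to 0.247 over the alternatives. This gene was not near-silent in the EV line, where the 8 libraries without serum held 72 to 125.

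**Figure D2:**
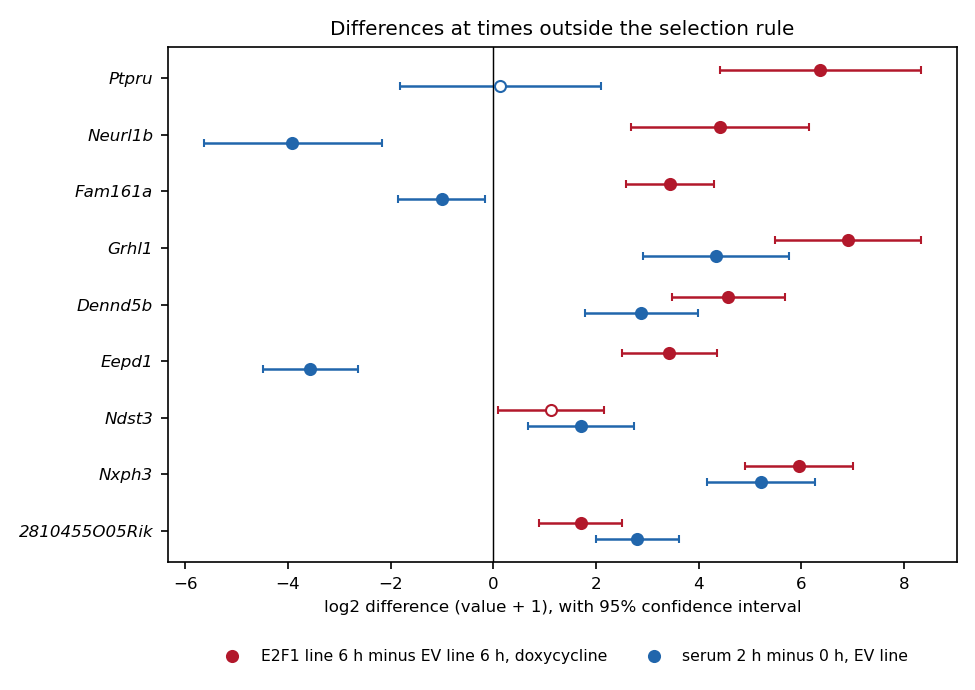
Log2 difference (value + 1) with its 95% confidence interval from limma for the 9 genes, for the E2F1 against the EV line at 6 h of doxycycline (red) and for 2 h of serum against 0 h in the EV line (blue); open points did not pass an adjusted p of 0.05. The red values run from 1.13 for Ndst3 to 6.90 for Grhl1, while the blue ones lie on both sides of zero, from -3.91 for Neurl1b to 5.22 for Nxph3.

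At 2 h of doxycycline limma called 0 of the 9 genes as different between the lines, against 4.25% of all genes called higher and 3.24% called lower. At an unadjusted p under 0.05, 3 were higher (Grhl1, Ptpru and Eepd1), against 12.5% of all genes, and 1, Ndst3, was lower, against 10.0%. Grhl1 had 83 and 49 normalized counts in the E2F1 line against 24 and 19 in the EV line, a log2 difference of 1.54 (adjusted p 0.184, from 0.0354 to 0.52 over the alternatives). Ptpru had 11 and 20 against 4 and 2 (2.04, adjusted p 0.202). At 0 h Ptpru had 18 and 15 in the E2F1 line, overlapping with its 2 h libraries, and 9 and 22 in the EV line. Eepd1 had 67 and 49 against 20 and 29 (1.22, adjusted p 0.103), and Ndst3 had 56 and 45 against 125 and 112 (-1.22, adjusted p 0.143). At 0 h Ndst3 had 14 and 54 in the E2F1 line, values that the rule chose to be low, against 107 and 123 in the EV line. Of the 32 replicative E2F targets listed for comparison, 22 were called higher in the same 2 h test and 0 lower. Their summed level was already higher in the E2F1 line at 0 h, at 55209 to 62260 against 32199 to 47887 in the EV line. At 2 h of doxycycline it was 65958 to 74478 against 40489 to 44082. The part of the 0 h difference in these calls was not tested.

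The EV line given doxycycline measured the drug and further starvation without the E2F1 construct. There the members other than Ndst3 stayed low, though only 6 of the 9 had an EV 0 h mean under the limit of 50. Ndst3 (115), Eepd1 (54.5) and 2810455O05Rik (51) were above it. Excluding Ndst3, the highest value in any of the 8 EV libraries without serum was 84 normalized counts, for Dennd5b at 2 h. That gene was the only member called in these comparisons, with 14 and 33 at 0 h and 84 and 76 at 2 h, a log2 difference of 1.84 (adjusted p 0.0392, from 0.0329 to 0.249 over the alternatives), against 4.93% of all genes called higher and 2.43% lower. The call was lost without EV 2 h replicate 1 (0.151) or 2 (0.165) and without EV 0 h replicate 1 (0.249). It had 30 and 42 at 6 h and 39 and 9 at 12 h. At 6 and 12 h limma called 0 of the 9 genes, with 0.134% and 0.749% of all genes called higher and 0% and 3.42% lower. At an unadjusted p under 0.05 it was also 0 of the 9, with 3.45% and 6.19% of all genes higher and 2.44% and 10.6% lower.

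Serum, the usual signal that brings starved fibroblasts back into the cycle, split the 9 genes. After 2 h limma called 5 higher, against 37.5% of all genes, and 3 lower, against 33.5%. These counts say little of the members as a set, since so much of the table moved. Nxph3 rose most, from 28 and 12 normalized counts at 0 h to 586 and 888, 36.9-fold on the means and 5.22 on the log2 scale (SE 0.50, adjusted p 3.15e-08). Grhl1 rose from 19 and 7 to 263 and 245, a log2 difference of 4.33 (SE 0.68, adjusted p 1.45e-05) that was 4.99 without EV 0 h replicate 1 and 3.67 without replicate 2. So the neuronal ligand and the epithelial factor that stood highest per kilobase at 6 h of E2F1 were also the largest early rises under serum among the 9.

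Dennd5b rose from 14 and 33 to 190 and 144 (log2 difference 2.88, adjusted p 7.85e-05). Ndst3 rose from 107 and 123 to 455 and 314 (1.71, adjusted p 0.00441), and 2810455O05Rik from 26 and 76 to 339 and 297 (2.80, adjusted p 3.56e-06). The high serum 2 h values of 2810455O05Rik helped to place it among the genes measured, so its p-value supports nothing on its own. Without EV 0 h replicate 1 or 2 the differences were 2.29 and 3.47 for Dennd5b and 2.05 and 3.56 for 2810455O05Rik. In Nxph3, Ndst3 and 2810455O05Rik the serum 2 h mean was the highest of all 11 groups, above every mean of the E2F1 line.

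Eepd1 and Neurl1b went the other way. Eepd1 fell from 71 and 38 normalized counts to 3 and 4 (log2 difference -3.57, SE 0.44, adjusted p 8.46e-07). Neurl1b, already low at 16 and 52, was at 3 and 0 (-3.91, SE 0.83, adjusted p 0.000354). The Neurl1b value was -4.91 and -2.91 without serum 2 h replicate 1 or 2, and -4.73 and -3.09 without EV 0 h replicate 1 or 2. Fam161a was called lower, with 40 and 43 against 13 and 31 (log2 difference -1.0, adjusted p 0.0333, up to 0.963 over the alternatives). That call was lost without serum 2 h replicate 1 (adjusted p 0.416) and without EV 0 h replicate 1 (0.0754) or 2 (0.105). Ptpru had 9 and 22 at 0 h and 19 and 13 after serum, and its groups overlapped.

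The serum rises were largest early. At 6 h of serum limma called 3 members higher, against 36.5% of all genes, and 2 lower, against 31.0%. Nxph3 stood at 523 and 277 (log2 difference 4.30 from 0 h, adjusted p 5.54e-07), Grhl1 at 78 and 155 (3.13, adjusted p 0.000501) and Dennd5b at 66 and 104 (1.89, adjusted p 0.00388, but 0.0706 without EV 0 h replicate 1). Without EV 0 h replicate 1 or 2 the value for Grhl1 was 3.79 and 2.47. Eepd1 was still low at 9 and 12 (-2.22, adjusted p 0.000229, but 0.0694 under quantile normalization). Ndst3 had dropped below its start, to 82 and 27 (-1.26, adjusted p 0.0294), a call lost without serum 6 h replicate 2 (adjusted p 0.432) and without either EV 0 h library (0.0629 and 0.108).

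At 12 h of serum 4 members were called higher, against 36.0% of all genes, and 1 lower, against 29.7%. Dennd5b stood at 127 and 68 (log2 difference 2.06 from 0 h, adjusted p 0.00218), Grhl1 at 55 and 89 (2.49, adjusted p 0.00358, but 0.0546 without EV 0 h replicate 2) and Nxph3 at 149 and 62 (2.32, adjusted p 0.000534). Nxph3 was at 1.70 and 2.95 without serum 12 h replicate 1 or 2, and Dennd5b at 1.47 and 2.65 without EV 0 h replicate 1 or 2. The rise of 2810455O05Rik to 124 and 98 (1.29, adjusted p 0.00739) was lost without EV 0 h replicate 1 (0.226) and without serum 12 h replicate 1 (0.0588). Neurl1b, with 6 and 0, was the member called lower (-3.50, adjusted p 0.00115, but 0.0544 with only the groups compared). Its value was -4.91 and -2.10 without serum 12 h replicate 1 or 2 and -4.32 and -2.68 without EV 0 h replicate 1 or 2. Eepd1 stood at 45 and 30, overlapping with its 0 h libraries. The 12 h serum libraries of Ptpru (32 and 17) and Fam161a (57 and 60) stayed at no more than 60, although Ccne1 had gone from 281 and 445 at 0 h to 3569 and 2763.

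**Figure D3:**
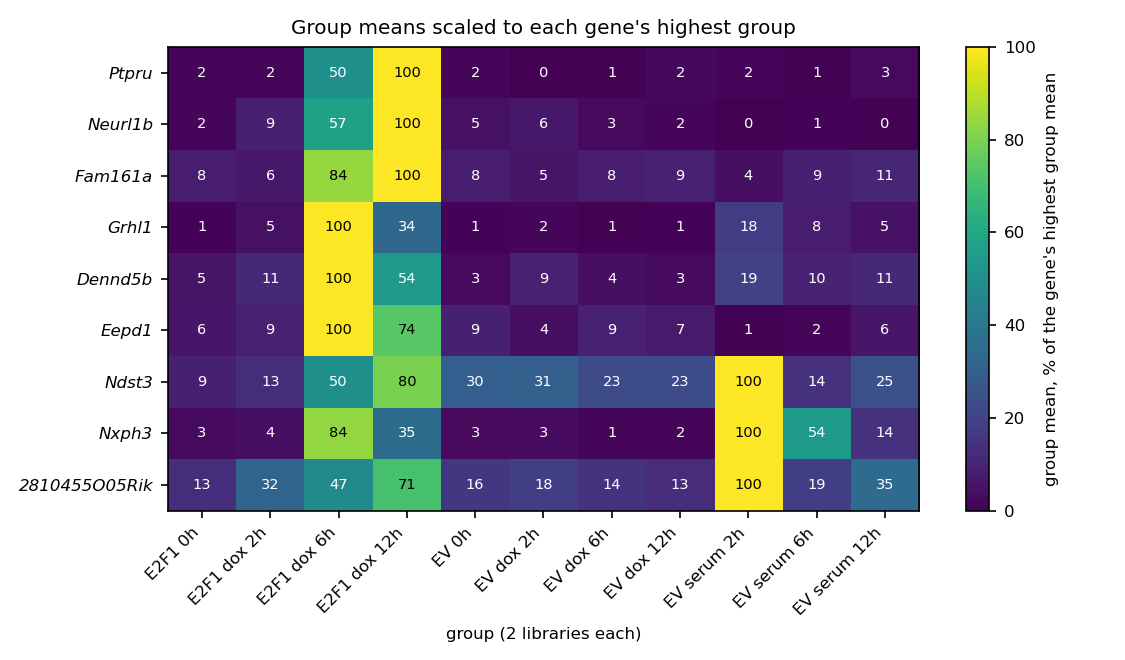
Group means of the 9 genes (rows) in the 11 groups (columns, 2 libraries each), as a percentage of each gene's highest group mean. Ptpru, Neurl1b and Fam161a peak at 12 h of E2F1, Grhl1, Dennd5b and Eepd1 at 6 h of E2F1, and Ndst3, Nxph3 and 2810455O05Rik at 2 h of serum.

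E2F1 and serum were compared directly at 6 h. The same E2F1 6 h libraries helped to bring 7 of the members into the table, so the counts are again a description. By limma the E2F1 line was higher in 8 of the 9 genes, against 37.1% of all genes, and lower in 0, against 33.7%. In all 9 both E2F1 libraries lay above both serum libraries, as in 43.0% of all genes. Ptpru (log2 difference 7.04), Eepd1 (5.77) and Neurl1b (5.55) had the largest values, each with an adjusted p of at most 8.66e-06. Ptpru had 0 and 12 normalized counts with serum, and its value was 5.19 without serum 6 h replicate 1, below that of Eepd1 (5.58), and 8.89 without replicate 2. With 8 in place of 1 before the log it was 5.26. Grhl1 (3.67), Dennd5b (3.37), Fam161a (3.27), Ndst3 (2.00) and 2810455O05Rik (1.35, adjusted p 0.00464, but 0.054 without serum 6 h replicate 1 and 0.0776 under quantile normalization) were also higher. Ndst3 was at 2.78 and 1.22 without serum 6 h replicate 1 or 2. Nxph3 had 615 and 621 in the E2F1 line against 523 and 277 with serum, a log2 difference of 0.70 (95% confidence interval -0.35 to 1.75, adjusted p 0.222). This comparison joins a difference of line with a difference of stimulus.

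Time courses under E2F1 and calls at 2 h of serum are set side by side as a description. Of the 4 genes with a 6 h mean above the 12 h mean in the E2F1 line, 3 (Grhl1, Dennd5b and Nxph3) rose at 2 h of serum and 1 (Eepd1) fell. Of the 5 with the higher mean at 12 h, 2 (Ndst3 and 2810455O05Rik) rose, 2 (Neurl1b and Fam161a) fell and Ptpru was not called. The limma call of Fam161a was lost under quantile normalization (adjusted p 0.963). Over all genes 37.5% were called higher and 33.5% lower at 2 h of serum, so these splits say little of the members.

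The non-coding 2810455O05Rik begins 46 bases beyond the 3′ end of Ccsap, a gene of the same strand that encodes a centriole- and spindle-associated protein. Ccsap stood at 474 and 480 normalized counts at 0 h in the E2F1 line, at 1235 and 1002 at 6 h and at 1723 and 1568 at 12 h. At 2 h of serum it stood at 3248 and 3491, against 346 and 524 at EV 0 h. Thus both genes were highest in the same libraries, and 2810455O05Rik ran from 7.51% to 19.3% of the Ccsap value over the 22 libraries. Its share was highest in the E2F1 2 h libraries, at 19.3% and 18.5%, against 8.86% and 8.54% at 0 h. In those 2 h libraries Ccsap stood at 592 and 497 and 2810455O05Rik at 114 and 92. The part that transcripts running on from Ccsap may have in these counts was not tested.

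**Figure D4:**
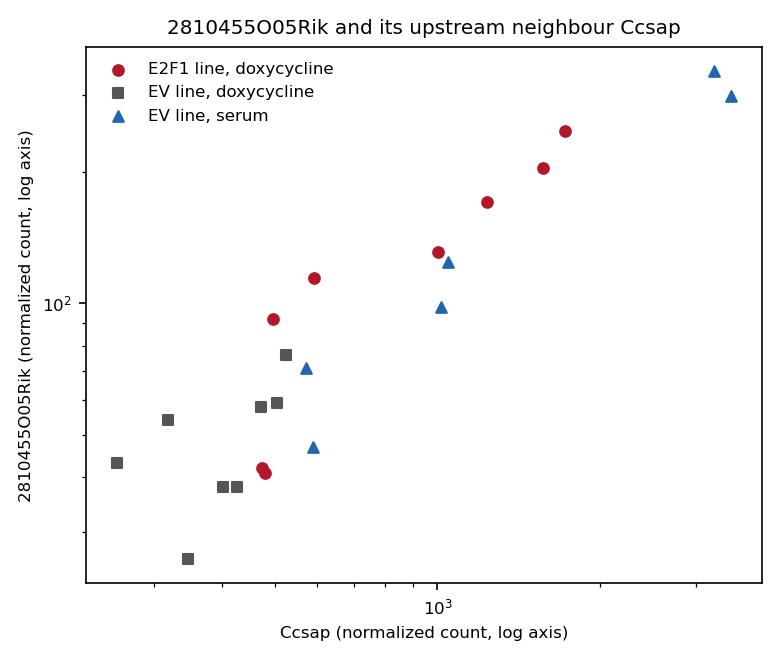
Normalized counts of 2810455O05Rik against those of its upstream neighbour Ccsap, both on log axes, 1 point per library. The serum 2 h libraries (3248 and 3491 for Ccsap) and the E2F1 12 h libraries lie at the upper right. The ratio runs from 7.51% to 19.3% and is highest in the E2F1 2 h libraries.

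The genes of other tissues were also counted by lists chosen from general knowledge, with the members known. The table held 4 of 30 epithelial genes, and at 6 h of doxycycline 2 of them were higher in the E2F1 than in the EV line, Grhl1 and Ptpru, both members, while the desmosomal gene Pkp3 was lower. Over all genes the shares were 33.0% higher and 27.2% lower. Grhl1 and Ptpru entered the table only through the E2F1 6 and 12 h libraries. Their calls thus follow in part from the choice, and the count says nothing of the tissue. Of 33 neural genes the table held 9. Of these, 5 were called higher (Nxph3, a member, with Hap1, Nes, Dlx1 and Dlx2). The 2 called lower were Gria1 and Slc17a7, which encode a glutamate receptor and a glutamate transporter. After 2 h of serum, 5 of the 9 were also higher (Nxph3, Nes, Tubb3, Dlx1 and Dlx2) and 3 lower, against 37.5% and 33.5% of all genes. The table held 3 of 28 germline, 2 of 20 muscle and 2 of 22 blood genes, with 1 of each list higher in the E2F1 line at 6 h and 1 germline and 1 blood gene lower. Of the 14 fibroblast markers 3 were higher and 7 lower. In the replicative list all 32 genes were higher in that comparison, with a median log2 difference of 2.38, against 0.01 over all genes. The summed level of this list was already higher in the E2F1 line at 0 h.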

How the data were processed

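Per the labels' protocols, polyadenylated RNA was sequenced as 150 bp paired-end reads. The submitters' processing notes name FastQC, Trimmomatic, HISAT2, featureCounts, DESeq2 and mm10; versions, strand setting and annotation release are not given in the sources used here. The deposited table gives normalized counts as whole numbers, and the method of scaling is not stated. These deposited values are handled as a score, not as raw counts, and the read depth behind them is unknown. Further tables give log2 fold changes and adjusted p-values as the authors deposited them.

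Log2(value + 1) was analysed with limma 3.58.1 in R 4.3.3: 1 mean for each of 11 groups over 22 libraries, no filter, variances moderated by empirical Bayes along a trend in the mean, two-sided tests and Benjamini-Hochberg adjustment over 11208 genes at 0.05. Each comparison is a difference between 2 groups. Tests used only comparisons without the E2F1 0 h and 12 h libraries. The comparison of serum at 2 and 12 h was added after seeing the data. The code was tested on simulated data. The members and lists were chosen with earlier results of these data known. All members are named, with every library value where a result turns on it. Trp73, which the naming rule lists, is not analysed here. Gene positions are from GRCm38 (GENCODE M21), where 10977 of the 11208 identifiers had the same version, the exception among the members being Fam161a. Tables were made in Python 3.11.15 with pandas 2.3.3 and numpy 2.4.6, and plots with matplotlib 3.10.9. The alternatives were a pseudocount of 8, quantile normalization, equal totals, a mean of at least 200, only the groups compared, the replicate number as a block, no trend, at least a 2-fold change, leaving out each replicate and, added later, leaving out the doxycycline 2 h libraries.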

Additional observations from a re-analysis of the deposited data

Results flagged for a closer look

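By limma on the difference between serum at 2 h and at 12 h, 6 of the 9 genes were called. Of all genes 31.7% were called higher and 31.7% lower at 2 h, so the count is near the share of the table and no trait of the members. High serum 2 h values helped to place 2810455O05Rik among the genes measured, so its p-value supports nothing on its own. In these 6 genes the serum effect differed between the times. It was larger at 2 h for Nxph3 (log2 difference 2.89, adjusted p 6.51e-05, 3.52 and 2.27 without serum 12 h replicate 1 or 2), for Ndst3 (1.97, adjusted p 0.00183), for Grhl1 (1.84, adjusted p 0.0239, but 0.0869 and 0.0703 without serum 2 h replicate 1 or 2 and 0.138 without serum 12 h replicate 1) and for 2810455O05Rik (1.52, adjusted p 0.00237). In Eepd1 the value was -3.08 (adjusted p 7.85e-06, and -1.97 with a pseudocount of 8), from 3 and 4 normalized counts at 2 h to 45 and 30 at 12 h. In Fam161a it was -1.49 (adjusted p 0.00359, but -0.89 and 0.086 without serum 2 h replicate 1 and -2.09 without replicate 2), from 13 and 31 to 57 and 60.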

How the results depend on the processing

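Over 47 tested gene values and their 525 alternative fits, 487 kept direction and side of the threshold, 31 lost the threshold, 7 gained it and 0 changed sign. The 47 were not all values tested. They were every called value, all values of E2F1 at 6 h against EV and against serum, and E2F1 2 h values at an unadjusted p under 0.05. The values left out were uncalled, and some passed the threshold in an alternative, as Ptpru at 6 h of serum did. The counts of fits therefore do not cover all results. The rule gave 9 genes. A 0 h limit of 25 gave 4 and one of 100 gave 41, and a 12 h limit of 400 gave 6. Leaving out a replicate gave 9 to 11 genes, and the 9 without replicate 1 shared 7 with the members, with Dennd5b and Ndst3 lost. Dennd5b and Ndst3 were lost when both libraries had to meet the limits. Only Grhl1 and Nxph3 have a mean of at least 200, so with that filter, by its construction, the counts of called members became 2 for E2F1 against EV at 6 h, 1 for E2F1 against serum at 6 h, 2 higher and 0 lower for serum at 2 h and at 12 h, 0 lower for serum at 6 h, 2 higher and 0 lower for serum at 2 h against 12 h, and 0 for EV doxycycline at 2 h.

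For E2F1 against EV at 2 h, 1 member was called higher and 1 lower both under quantile normalization and with only the groups compared. For serum at 6 h the members called lower were 0 under quantile normalization, 4 under equal totals and 1 with only the groups compared, and 1 to 3 when a library was left out. For serum at 12 h with only the groups compared, 0 were lower. For EV doxycycline at 2 h the member called higher was lost (0 called) under quantile normalization, with only the groups compared and without the trend, and quantile normalization called 1 lower. Leaving out a library there gave 0 to 1. For serum at 2 h against 12 h, 1 was lower under quantile normalization, and 1 to 2 when a library was left out. Apart from the scalings and the smaller fits themselves, the cause of these changes was not tested.

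Leaving out a library leaves a lone sample that is assumed to vary like the other groups. Over the other counts these fits gave 8 for E2F1 against EV at 6 h, 7 to 8 against serum at 6 h, 5 higher and 2 to 3 lower for serum at 2 h, 2 to 4 higher at 6 h and 3 to 4 higher and 1 lower at 12 h. With the replicate number as a block no count of called members changed, and that for E2F1 against EV at 6 h stayed at 8. That count was 9, with Ndst3 added, with a pseudocount of 8, under quantile normalization and with only the groups compared. Replicate 1 of the compared groups deviated together with a correlation from -0.02 to 0.45, and the numbers were not taken as pairs. Without the 4 doxycycline 2 h libraries no count of called members changed in the comparisons that do not use them. Values near 0 rest on few reads, so the sizes of rises from and falls to them depend on the pseudocount, as for Ptpru above the EV line (6.37, and 5.17 with 8) and for Neurl1b at 2 h of serum (-3.91, and -2.02 with 8).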
